A study of Mus musculus with 4 samples.

Results

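The histone cluster genes were taken as every gene whose symbol begins with Hist1h, Hist2h, Hist3h or Hist4h, the older mouse symbols for the clustered histone genes. This gave 70 of the 38924 genes in the count tables. They comprised 6 genes of the linker histone H1, 20 of H2A, 19 of H2B, 12 of H3 and 13 of H4, counting 3 that GENCODE types as pseudogenes. By symbol, 56 were named for cluster 1 on chromosome 13, 10 for cluster 2 on chromosome 3, 3 for cluster 3 on chromosome 11 and 1 for cluster 4 on chromosome 6. One of the 56, Hist1h2al, lies elsewhere on chromosome 13.

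The series profiled whole kidney RNA of CB-17 SCID females, of the Balb/c background, which lack mature T and B cells, in a passive mouse model of IgA nephropathy. The 2 control libraries came from mice given saline into the tail vein. The 2 treated libraries came from mice given immune complexes of IgG and galactose-deficient IgA1 (Gd-IgA1) by the same route. Both groups received 3 injections over 7 days, and a piece of kidney was collected 1 day after the third. The immune complexes were given ready-made, so the model covers their arrival and not their formation. Ages of the mice were not in the labels. Separate animals are not named in the labels beyond the numbered titles, so every p-value measures the spread between these libraries, which may be technical.

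Replication-dependent histone genes supply the chromatin proteins for newly copied DNA and are transcribed mainly in S phase. Most lack introns, and their mRNAs end in a conserved stem-loop that is bound by the stem-loop binding protein SLBP, not in a poly(A) tail. Some members can also be made as polyadenylated transcripts in cells that do not divide, such as most cells of an adult kidney. The core histones H2A, H2B, H3 and H4 form the nucleosome, and H1 binds the DNA entering and leaving it.

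The stem-loop is the sequence feature that defines the family, and it is shown for members on which the results turn. Each sequence is the sense strand in DNA letters, taken from the GENCODE M21 transcript, with the stem-loop in capitals and its flanks in lower case.
Hist1h1c: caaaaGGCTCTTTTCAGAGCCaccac
Hist1h1e: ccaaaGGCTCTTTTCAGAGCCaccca
Hist1h2bj: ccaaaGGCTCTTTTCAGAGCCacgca
Hist1h2bk: ccaaaGGCTCTTTTAAGAGCCactaa
Hist2h3c2: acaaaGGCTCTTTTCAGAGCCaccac
Hist1h4h: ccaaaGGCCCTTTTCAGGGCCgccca
Hist1h4i: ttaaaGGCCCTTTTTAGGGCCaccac

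The search pattern was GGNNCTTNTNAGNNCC on the sense strand, which is also the consensus of the 8 forms found, with N where they differ. It was found in the annotated transcripts of 46 of the 70 members (65.7%), against 0.355% of all 58797 protein-coding transcripts. The form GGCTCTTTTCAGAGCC was carried by 26 members, 3 of H1, 10 of H2A, 8 of H2B and 5 of H3. All 12 H4 members with a stem-loop instead began with GGCCC or GGTCC, and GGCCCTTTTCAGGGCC was the form in 7 of these. The remaining 24 members had no match within the annotated transcript, and 17 of their transcripts were under 480 bases long. A transcript model that stops at the coding end cannot hold the stem-loop, so no match says only that these letters are not in that model.

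A few members held most of the histone reads. In total 22318 reads over the 4 libraries fell on the family. Hist1h2bc (7628 reads), Hist1h1c (7512) and Hist1h2al (2611) held 79.5% of them. Of the others, 20 members had between 40 and 740 reads, 16 had 10 to 39, 27 had 1 to 9, and 4 had no read in any library (Hist1h2bp, Hist1h2ao, Hist1h2ab and Hist1h3b). As a raw rate, the family was at 263.6 and 309.7 CPM (reads scaled to library size) with saline against 249.2 and 229.0 with immune complexes; CPM values given later are scaled by edgeR's TMM factors. By class, H2B took 44.9% of the histone reads, H1 34.7%, H2A 14.7%, H4 4.55% and H3 1.08%.

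Levels of single genes are set side by side as the authors' RPKM, which is reads scaled to exon length and library size. Hist1h2bc, an H2B gene at chr13:23684199-23692488 on the plus strand of GRCm38, was the leading member, at 107.6 and 127.3 RPKM with saline against 128.3 and 118.9 with immune complexes. Its groups overlapped. Unlike 61 of the 70 members, which have 1 exon, it has 2, and 15.2% of its exon reads crossed the exon junction (235, 318, 327 and 269 reads in saline 1, saline 2, immune complex 1 and immune complex 2). The only other member with such reads was Hist1h2be, with 3 in all. The histone reads at this locus therefore include spliced RNA, and its GENCODE transcript holds no stem-loop.

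Hist1h1c, which encodes the linker histone H1.2, lies at chr13:23738807-23740366 on the plus strand as a single exon. Its level per length was 63.0 and 78.1 RPKM with saline against 42.1 and 45.2 with immune complexes, and both immune complex values lay below both saline values. The other H1 genes were far lower per length. Hist1h1e (H1.4) stood at 2.92 and 3.38 RPKM with saline against 1.82 and 2.34 with immune complexes, again without overlap. Hist1h1d (H1.3) averaged 0.170 RPKM over the 4 libraries. Hist1h1a, Hist1h1b and the testis form Hist1h1t had 2, 1 and 6 reads in all, near the limit of what these libraries can show.

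**Figure D1:**
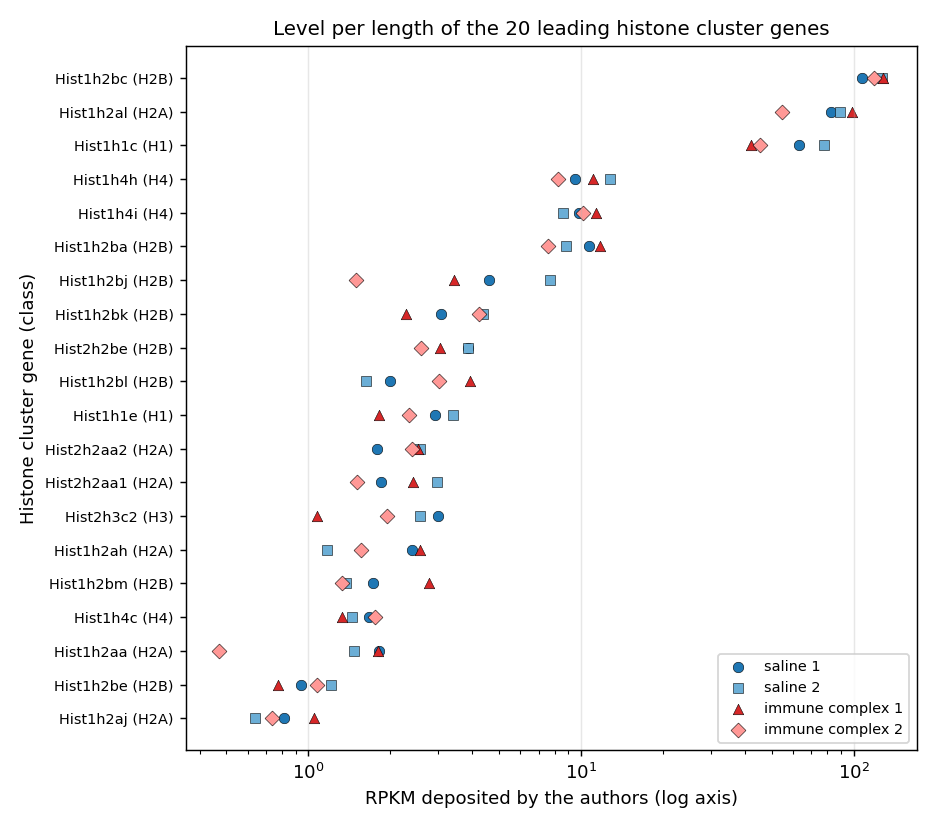
Level per length of the 20 histone cluster genes with the highest mean, as RPKM deposited by the authors on a log axis, with 1 point for each of the 4 libraries. Hist1h2bc, Hist1h2al and Hist1h1c lie at 42.1 RPKM or more in every library, the other members at 12.7 or less, and Hist1h1c is lower in both immune complex libraries.

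Hist1h2al ranked second per length, at 82.4 and 88.9 RPKM with saline against 98.2 and 54.7 with immune complexes. The immune complex libraries were the highest and the lowest of the 4. The gene lies at chr13:51202688-51203065, outside the cluster, and GENCODE types it as a processed pseudogene. Its annotated sequence is identical to that of the replication-dependent H2A genes Hist2h2aa1 and Hist2h2aa2 at 337 of 339 bases and to Hist2h2ac at 333 of 339. Of its exon reads, 18.6% were counted as unique, taken here as placed at 1 location (95% Wilson interval 17.1% to 20.1%, covering counting error only). Hist2h2aa1 and Hist2h2aa2 themselves had 108 and 107 reads, none of them unique. Reads that were not unique are therefore not securely assigned among these loci.

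The H4 genes were led by Hist1h4h and Hist1h4i. Hist1h4h measured 9.50 and 12.7 RPKM with saline against 11.1 and 8.24 with immune complexes, and the groups overlapped. Hist1h4i measured 9.84 and 8.62 RPKM with saline against 11.4 and 10.1 with immune complexes, both of the latter the higher. Both carry a poly(A) signal near the annotated end. Hist1h4c was lower, at 1.67, 1.45, 1.33 and 1.75 RPKM in saline 1, saline 2, immune complex 1 and immune complex 2.

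Among the other H2B genes, Hist1h2ba, a form known from the testis, reached 10.7 and 8.83 RPKM with saline against 11.7 and 7.59 with immune complexes. Its H2A neighbour Hist1h2aa, also a testis form, reached 1.82, 1.47, 1.80 and 0.473, the last being immune complex 2. Of their exon reads, 73.3% and 100% were uniquely placed. Hist2h2be, which has 99.5% unique reads, stood at 3.86 and 3.87 RPKM with saline against 3.05 and 2.59 with immune complexes. Hist1h2bj, Hist1h2bk, Hist1h2bl and Hist1h2bm averaged 4.31, 3.50, 2.64 and 1.80 RPKM.

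Hist2h3c2 was the leading H3 gene, at 3.00 and 2.58 RPKM with saline against 1.08 and 1.95 with immune complexes, without overlap. The H3 class as a whole had few reads, and 3 of its 12 genes reached 10 reads. The H2A genes Hist2h2aa2, Hist2h2aa1, Hist1h2ah and Hist1h2aj averaged 2.32, 2.19, 1.92 and 0.810 RPKM. Hist3h2a and Hist3h2ba, of cluster 3, averaged 0.665 and 0.727 RPKM, and Hist4h4, the single gene of cluster 4, had 3 reads.

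Many members are near-copies of one another, which limits what each row measures. Unique exon reads are taken here as placed at 1 location, but the sources do not define the term. Overlap with another gene model may also lower their number, which was not tested. Exon reads counted as unique were 69.5% and 71.4% of the family's with saline and 66.5% and 71.5% with immune complexes, against 86.7% to 87.7% over all genes. The share was 91.3% for H1, 72.1% for H2B, 58.9% for H4, 24.4% for H3 and 18.8% for H2A. Of the 31 members with at least 20 exon reads, 4 had over 90% unique reads and 10 had under 10%. A further measure came from the transcripts: the median member had 45.5% of its 50-base words in no other GENCODE gene, and 5 members had none. Words shared with a gene model that overlaps the member also counted as shared. Each of these 5 shared 100% of its words with such an overlapping model, so their value does not by itself show a copy elsewhere. The class medians of that measure were 98.9% for H1, 60.5% for H4, 55.9% for H2B, 38.0% for H3 and 26.8% for H2A.

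**Figure D2:**
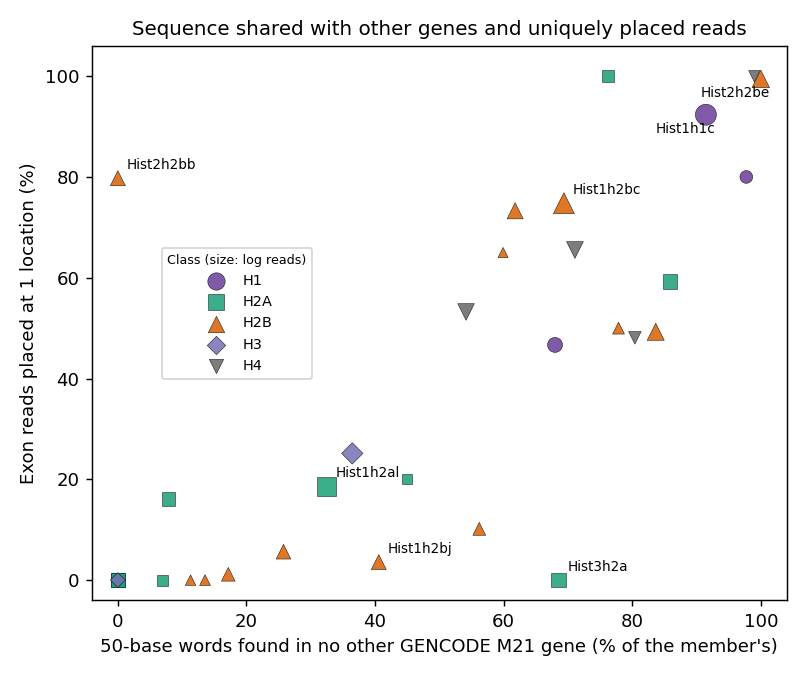
Share of a member's 50-base words found in no other GENCODE M21 gene (x axis, %) against the share of its exon reads placed at 1 location (y axis, %), for members with at least 20 reads, by class. Most members rich in shared words have few uniquely placed reads, with Hist2h2bb and Hist3h2a off that relation. Hist1h1c has 92.3% unique reads, Hist1h2bc 74.8%, Hist1h2al 18.6% and Hist1h2bj 3.57%.

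Hist2h2bb stood off that relation, with 79.7% unique reads and no word of its own. The gene identifier of its row belongs to a long non-coding RNA, Gm42743, in GENCODE M21, and 54.6% of its 174 reads were intronic. The row of Hist1h2be spans 37383 bases and overlaps other genes, and 62.9% of its 558 reads were intronic, so its total depends on whether introns are counted. Hist3h2a, with 0% unique reads, overlaps Trim17. The identifiers of Hist2h2aa1 and Hist2h2aa2 are exchanged between the files and GENCODE M21.

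Reads and RPKM were also grouped by where the annotated transcript ends. The 22 members whose transcripts end within 60 bases after the stem-loop held 4.90% of the histone reads, with a median of 0.103 RPKM, and 1 of them has a poly(A) signal (AATAAA or ATTAAA) in its last 50 bases. The 23 members whose transcripts run at least 100 bases past the stem-loop held 42.0%, with a median of 0.221 RPKM, and 12 have a signal. Hist1h1c, whose transcript goes on for 840 bases past the stem-loop to a poly(A) signal, accounts for most of that share. The 24 members with no stem-loop in the model held 53.1%, with a median of 0.287 RPKM, chiefly in Hist1h2bc, Hist1h2al and Hist2h2be. Transcript ends as annotated are not measured ends, and reads past the stem-loop were not counted separately in these files. Reads and RPKM used the authors' gene models, whose exon lengths differ from the GENCODE transcripts for some members, in either direction. They were 393 against 1138 bases for Hist1h4d and 1041 against 393 for Hist1h2ai, while Hist1h1c had 1560 in both. The reads of a member can therefore stop short of the annotated end used for grouping.

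**Figure D3:**
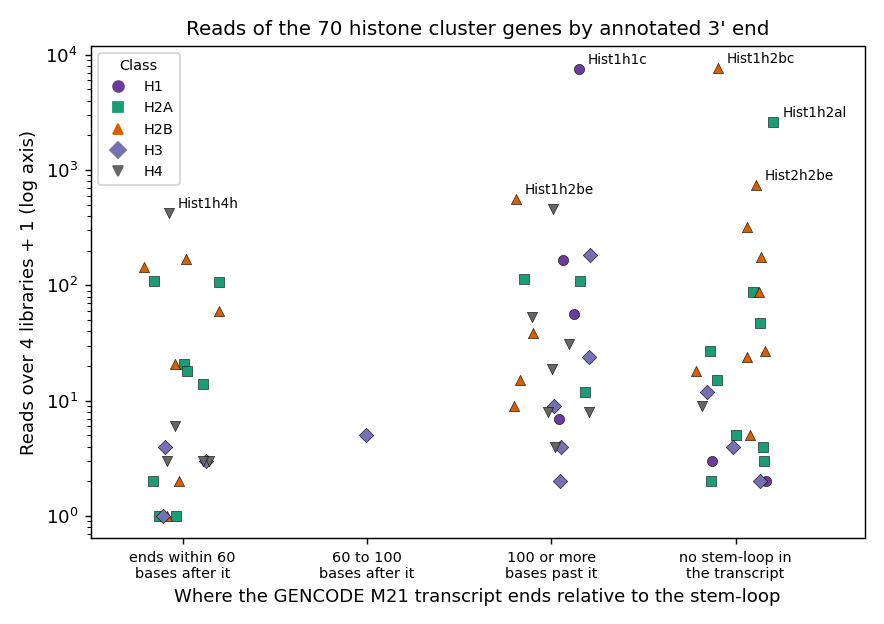
Reads summed over the 4 libraries plus 1, on a log axis, for each of the 70 members, grouped by where the GENCODE M21 transcript ends relative to the stem-loop and marked by class. The members ending within 60 bases reach 421 reads at most (Hist1h4h), while Hist1h1c and Hist1h2bc, in the other groups, have 7512 and 7628.

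Small RNAs that carry no poly(A) tail were listed for the same reason, since most replication-dependent histone mRNAs lack one. Of 17 listed, 4 had no read in any library and 5 passed the expression filter, and their summed level was 18.2 and 19.0 CPM with saline against 31.8 and 7.94 with immune complexes. Rn7sk, the 7SK RNA that holds the elongation factor P-TEFb, was at 7.62, 6.58, 8.16 and 3.36 CPM in saline 1, saline 2, immune complex 1 and immune complex 2. The labels do not say whether RNA was poly(A)-selected, and the part of selection in the histone levels was not tested.

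Many H2A and H2B genes are paired head to head across a shared promoter. With starts at most 400 bases apart, 14 such pairs were found. By RPKM the H2B gene was the higher in 10 and the H2A gene in 4. Part of this tally rests on few reads or on reads that were not unique. Hist1h2ad and Hist1h2bf had 1 read each, and Hist1h2ao and Hist1h2bq 0 and 17, with 0 unique, all scored as H2B higher. Hist1h2an and Hist1h2bp had 14 and 0, with 0 unique, scored as H2A higher. The pair with most reads was that of Hist1h2bc and Hist1h2ac, whose starts are 251 bases apart, at 120.5 and 0.511 mean RPKM. At the pair of Hist2h2be and Hist2h2ac the values were 3.34 and 0.463 RPKM.

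The promoter between Hist1h2ac and Hist1h2bc is shown because the 2 genes it serves had such unlike levels. It is the RefSeq window of Hist1h2ac (symbol H2ac6) at chr13:23683910-23684209, GRCm38.p6, minus strand, with the octamer that is bound by POU2F1 in capitals as it reads on this strand. The window of Hist1h1c (H1f2) at chr13:23738557-23738856, plus strand, has the AAACACA box of H1 genes in capitals.
Hist1h2ac and Hist1h2bc: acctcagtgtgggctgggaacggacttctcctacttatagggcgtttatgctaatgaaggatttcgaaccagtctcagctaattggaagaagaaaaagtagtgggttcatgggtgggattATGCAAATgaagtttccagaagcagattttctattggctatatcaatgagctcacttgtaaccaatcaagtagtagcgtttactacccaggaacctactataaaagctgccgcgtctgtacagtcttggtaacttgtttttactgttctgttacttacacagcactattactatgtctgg
Hist1h1c: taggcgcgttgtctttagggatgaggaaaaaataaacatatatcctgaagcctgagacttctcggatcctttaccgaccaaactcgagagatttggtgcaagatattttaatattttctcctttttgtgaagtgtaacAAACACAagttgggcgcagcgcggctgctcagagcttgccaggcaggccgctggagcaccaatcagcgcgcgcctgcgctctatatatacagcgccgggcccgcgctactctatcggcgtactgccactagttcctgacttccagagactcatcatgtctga

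RefSeq promoters were matched for 61 members, 62 windows in all, and searched on both strands. The octamer ATTTGCAT was in 14 (22.6%) against 1.74% of all 32851 promoters, and all 14 belonged to H2A (7 of 17) or H2B (7 of 17). Windows of head-to-head pairs can overlap, so a single site can be counted in both, and the 14 windows need not be 14 sites. Both overlapping windows held the octamer at Hist1h2ah with Hist1h2bk, Hist1h2ae with Hist1h2bg and Hist1h2aa with Hist1h2ba. AAACACA was in 5 of 6 H1 windows and in 14.5% of member windows, against 7.18% of all. CCAAT was in 85.5% of member windows against 37.4% of all, though in 3 of 12 of H4, and TATAAA was in 56.5% against 13.6%. No motif contains another, and a match is a description of the window only.

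The comparison of immune complex with saline kidneys asked which transcripts change in the kidney after 3 injections. Of the 70 members, 23 passed edgeR's filter on low counts and 47 did not. Differences are log2 fold changes from edgeR's quasi-likelihood test on total gene reads, and positive values are higher in immune complex libraries. P-values were adjusted by Benjamini-Hochberg over all 16334 genes tested. The test returns no standard error. The SE given here is the absolute log2 fold change over the square root of the test's F statistic. No gene had an adjusted p under 0.05 (0% of genes), and no histone member did. By unadjusted p under 0.05, 749 genes (4.59%) and 3 of the 23 members passed. DESeq2 called 100 genes and limma-voom 0, and no member was called by either. The authors' deposited table lists 23 members among 16128 genes, and calls 80 genes at an adjusted p under 0.05, none of them a member. The members' fold changes were positive in 10 and negative in 13, with a median of -0.03 against 0.01 over all genes tested.

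Of the 5 classes, H1 had the lowest ratio of summed levels, and nearly all of the H1 sum came from Hist1h1c. Hist1h1c measured 95.1 and 120.7 CPM with saline against 67.1 and 72.3 with immune complexes. The log2 fold change of Hist1h1c was -0.63 ± 0.19 (SE, n = 2 and 2), with an unadjusted p of 0.0138 and an adjusted p of 0.927 by edgeR. In the authors' deposited table its log2 fold change, turned to immune complex over saline, is -0.49 with an adjusted p of 0.422. DESeq2 run here on the same reads gave -0.64 for Hist1h1c, and -1.28 for Hist1h2bj against -0.39 deposited. How the deposited fold changes were computed is not given, so their sizes cannot be set against those here. The difference of Hist1h1c did not pass edgeR's adjusted test, although the groups did not overlap.

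Hist1h1e stood at 2.12 and 2.51 CPM with saline against 1.39 and 1.80 with immune complexes, a log2 fold change of -0.54 ± 0.35 in edgeR, and of -0.30 with unique exon reads. Hist1h1d stood at 0.492, 1.14, 0.583 and 0.378 CPM in the same order of libraries, with overlap and a log2 fold change of -0.75 ± 0.57, which was -0.041 without saline 2. The summed H1 level was 97.8 and 124.4 CPM with saline against 69.2 and 74.5 with immune complexes, a ratio of 0.647. Hist1h1c held 7512 of the 7741 H1 reads, so the class sum largely repeats the values of that gene. For the H1 sum the exact permutation test gave a two-sided p of 0.333, the smallest that 2 libraries against 2 allow. In whole kidney, fewer cells of a type and less RNA per cell cannot be told apart.

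**Figure D4:**
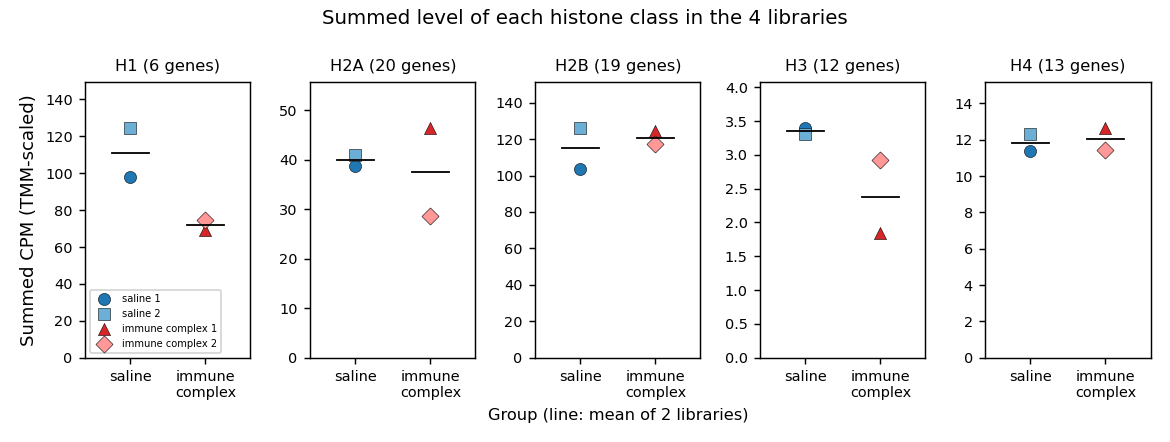
Summed level of each histone class in TMM-scaled CPM, with 1 point for each library and a line at the mean of each group; every axis starts at 0. The H1 sum is 97.8 and 124.4 in saline against 69.2 and 74.5 in immune complex libraries, the H3 sums do not overlap either, and the H2A, H2B and H4 sums do. Nearly all of the H1 sum is Hist1h1c.

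Hist1h2bc, the other abundant member, lay in overlapping groups. It measured 77.1 and 93.8 CPM with saline against 97.0 and 90.4 with immune complexes, a log2 fold change of 0.13 ± 0.18. The ratio of Hist1h1c to Hist1h2bc reads was 1.23 and 1.29 with saline against 0.691 and 0.800 with immune complexes. The ratio is taken within a library, so it does not depend on scaling between libraries, and it shows unequal levels of the pair without saying which of them moved.

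The sums over the family turned on Hist1h1c. With it, the 70 members summed to 255.1 and 306.9 CPM with saline against 254.5 and 234.6 with immune complexes, a ratio of 0.870 (two-sided exact permutation p = 0.333). Without it, the sums were 160.0 and 186.2 CPM against 187.4 and 162.3 CPM, a ratio of 1.01 (p = 0.667 by the same exact test). H2B summed to 103.7 and 126.0 CPM with saline against 124.4 and 117.2 with immune complexes. H3 summed to 3.39 and 3.31 CPM with saline against 1.84 and 2.93 with immune complexes, from few reads.

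The other 2 members with an unadjusted p under 0.05 were H2B genes that went opposite ways. Hist1h2bj measured 2.07 and 3.55 CPM with saline against 1.61 and 0.709 with immune complexes (log2 fold change -1.27 ± 0.51, unadjusted p = 0.0426, adjusted p = 0.999968 by edgeR). Hist1h2bl measured 0.738 and 0.615 CPM with saline against 1.52 and 1.18 with immune complexes (log2 fold change 0.996 ± 0.41, unadjusted p = 0.0484, adjusted p = 0.999968 by edgeR). Of their exon reads, 3.57% and 1.15% were unique, and each shared most of its 50-base words with Hist1h2bq, so the reads of these rows cannot be told apart from those of other H2B copies.

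Groups did not overlap for 7 of the 23 members tested (30.4%), against 30.0% of all genes tested, which is no more than the background. Of these, 5 were lower in both immune complex libraries (14.6% of all genes were) and 2 were higher (15.4% of all genes). The lower members were Hist1h1c, Hist1h2bj, Hist1h1e, Hist2h2be with 9.79 and 10.03 CPM against 8.16 and 6.95, and Hist2h3c2 with 2.95 and 2.60 CPM against 1.12 and 2.03. The higher members were Hist1h2bl and Hist1h4i, the latter at 5.12 and 4.59 CPM against 6.23 and 5.58. Hist2h2be is an H2B gene with nearly only unique reads, at a log2 fold change of -0.39 ± 0.23. Hist2h3c2 was at -0.82 ± 0.40, but at -0.45 without immune complex 1, -1.31 without immune complex 2 and -0.41 with unique exon reads. Hist1h4i was at 0.28 ± 0.26, and at 0.52 with unique exon reads.

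**Figure D5:**
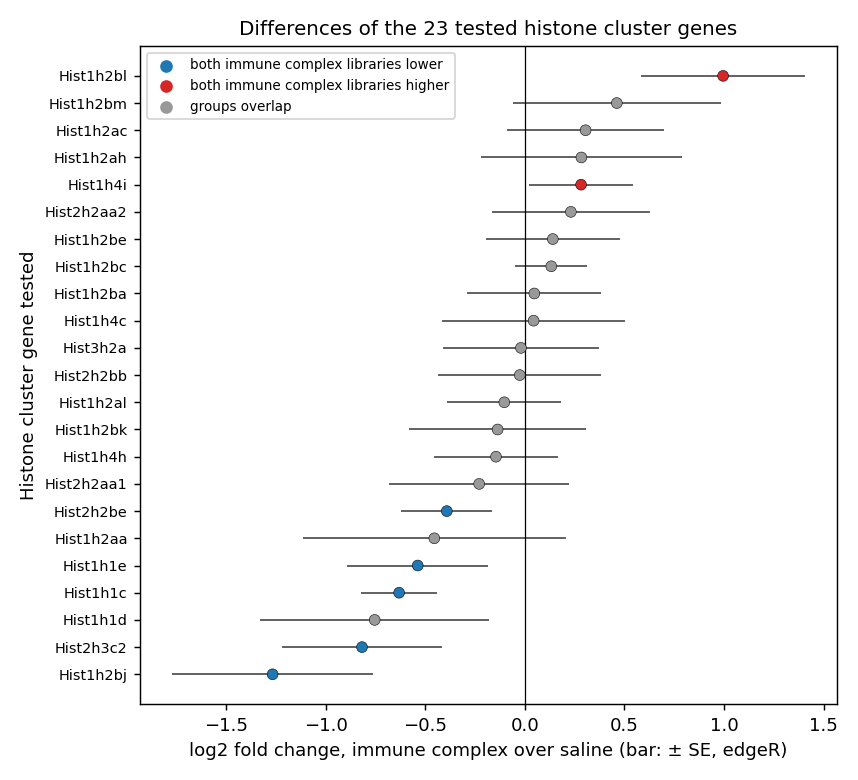
Log2 fold change of immune complex over saline for the 23 tested histone cluster genes, with bars of 1 SE derived from edgeR's F statistic, coloured by whether the groups overlap. No member passed the adjusted test; the values run from -1.27 for Hist1h2bj to 0.996 for Hist1h2bl, with Hist1h1c at -0.63.

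The remaining tested members lay within overlapping groups. Hist1h2al was at -0.10 ± 0.29, Hist1h4h at -0.14 ± 0.31, Hist1h2ba at 0.05 ± 0.34, Hist1h2be at 0.14 ± 0.34 and Hist1h2bk at -0.14 ± 0.44 on the log2 scale. Hist2h2aa1 and Hist2h2aa2, neither of which had a unique read, were at -0.23 ± 0.45 and 0.23 ± 0.40. Hist3h2a was at -0.02 ± 0.39, Hist2h2bb at -0.03 ± 0.41 and Hist1h2ac at 0.31 ± 0.39. Hist1h4c was at 0.04 ± 0.46, Hist1h2ah at 0.28 ± 0.51, Hist1h2bm at 0.46 ± 0.52 and Hist1h2aa at -0.45 ± 0.66. A 2 against 2 design gives these intervals, and they admit changes in either direction.

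Histone genes outside the clusters, most of which are expressed without replication, were set beside the members. Of 12 tested, none passed by edgeR, 2 had an unadjusted p under 0.05, 3 were positive and 9 negative, and the median log2 fold change was -0.12. Over all genes tested, 4.59% had such a p and 48.1% were negative. Groups did not overlap for 7 of the 12 (58.3%), 6 of them lower and 1 higher, against 30.0%, 14.6% and 15.4% of all genes. H1f0, the linker histone of resting cells, was at 296.8 and 260.5 CPM with saline against 219.3 and 178.5 with immune complexes (-0.49 ± 0.19, unadjusted p = 0.043 by edgeR). H3f3b and H3f3a, which encode H3.3, were at -0.13 ± 0.17 and -0.10 ± 0.17. H2afj was at 103.1, 119.6, 125.2 and 62.2 CPM in saline 1, saline 2, immune complex 1 and immune complex 2. Hist1h2al had the same order of libraries, and so did kidney markers such as Slc5a2 and Slc12a3, so the order is not particular to histone genes.

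Genes of S phase and mitosis gave no call. Of 28 tested, 0 passed by edgeR and 0 had an unadjusted p under 0.05, with 11 positive, 17 negative and a median of -0.05. Mki67, the proliferation marker, was at 3.10 and 2.51 CPM with saline against 1.52 and 3.92 with immune complexes. Pcna, the sliding clamp, was at 37.1 and 35.5 CPM with saline against 34.9 and 38.2 with immune complexes. Other genes of the list went both ways on the log2 scale. Mcm2 to Mcm7 ran from -0.75 for Mcm6 to -0.14 for Mcm7, and Lig1 was at -0.54 ± 0.23. Cdk1, Top2a, Ube2c and Ccnb1 were at 0.46 ± 0.48, 0.69 ± 0.51, 0.71 ± 0.38 and 0.80 ± 0.95. Of these, only Ube2c was above both saline libraries in both immune complex libraries. Cdk1, Top2a and Ccnb1 were so in immune complex 2 alone. Top2a, for example, was at 2.16 and 1.75 CPM with saline against 1.70 and 4.63 with immune complexes. Ccna2 and Birc5 were at 0.11 ± 0.45 and 0.24 ± 0.43.

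The factors that process histone mRNA or switch on histone genes gave no call either. Of 18 listed, 17 were tested, 0 passed and 0 had an unadjusted p under 0.05 by edgeR, with 9 positive, 8 negative and a median of 0.03. Slbp was at 17.2 and 17.4 CPM with saline against 14.0 and 17.5 with immune complexes. Of 17 histone chaperones, 10 were positive and 7 negative, with a median of 0.04, and none passed or had an unadjusted p under 0.05.

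The libraries differed in other tissue as well, and the values stand beside the Hist1h1c result. The 10 kidney markers summed to 15389 and 13949 CPM with saline against 12223 and 13608 with immune complexes, without overlap, and 7 of the 10 had negative fold changes. Aqp2, the collecting duct water channel, was at 1704 and 544.3 CPM with saline against 528.0 and 301.9 with immune complexes (log2 fold change -1.44 ± 0.53, unadjusted p = 0.0322 by edgeR), and Umod, the uromodulin gene of the thick ascending limb, was at 3949 to 5748 CPM. All 10 adipocyte markers had positive fold changes, and summed to 3928 and 5636 CPM with saline against 6677 and 6720 with immune complexes, mostly from Pck1, which kidney also expresses. Adipoq, a defining fat gene, was at 0.148 and 24.9 CPM with saline against 87.8 and 78.6 with immune complexes. All 7 urothelial markers had negative fold changes, summing to 75.5 and 92.3 CPM with saline against 16.4 and 18.3 with immune complexes. Only Psca and Upk3b of the 7 were lower without overlap. The other 5 summed to 5.31 and 51.9 CPM with saline against 11.2 and 10.5 with immune complexes, and so were high in saline 2 alone. The 5 erythroid markers tested were all positive, and the list summed to 534.1 and 473.3 CPM with saline against 897.6 and 916.1 with immune complexes. The 10 macrophage markers were all positive, summing to 193.0 and 209.3 CPM with saline against 242.8 and 282.8 with immune complexes. Brown fat markers were positive in 5 of 6, summing to 83.1 and 149.5 CPM with saline against 234.5 and 132.4 with immune complexes. Of 10 lymphocyte markers, 4 passed the expression filter, with 2 positive and 2 negative fold changes. The part of these differences in tissue content in the H1 values was not tested.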

How the data were processed

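Members and gene lists were chosen with earlier results of these data known. Per the labels' protocols, a service company extracted and sequenced kidney RNA by Illumina protocols. STAR 2.5.2b, DESeq2 and GRCm38 appear, without roles, in the submitters' processing notes. Counter, annotation, strand setting and poly(A) selection: not given in the sources used here. The deposited tables hold raw counts of total, unique, exon, intron and exon-exon reads per gene, RPKM computed by the authors, and gene and exon lengths as other columns, per the file headers. RPKM was recovered from exon reads, length and library total (gene reads where no exon is listed) for 99.7% of genes within a relative difference of 0.0001, and for all 70 members. The authors' comparison table holds a scaled mean signal, log2 fold changes, a test statistic score and p-values, per the file headers, and its sign, which opposes the read ratio, was turned to immune complex over saline.

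Totals were 19675879 to 22791960 reads a library. Counts were tested with edgeR 4.0.16 (R 4.3.3): filterByExpr, TMM, quasi-likelihood, group only, over all 4 libraries and all genes. The residual degrees of freedom were 2. Sums used TMM-scaled CPM and an exact permutation test. The edgeR steps were also run on simulated counts with known changes. The simulated replicates had less spread than these libraries, so that run does not show what can be recovered here. Replicate counts differed by more than sampling noise (chi-square over its degrees of freedom 13.8 for saline, 46.0 for immune complex), so each library was kept as a replicate. Alternatives were DESeq2 1.42.0, limma-voom 3.58.1, RLE scaling, no filter, exon reads, unique exon reads, a replicate block and leaving out each library. Named members were the 20 of highest mean RPKM, those with an unadjusted p under 0.05, and those known for polyadenylated or germ cell forms; the alternatives were run for every member tested. Annotation, transcripts and stem-loops are from GENCODE M21 (63 of 70 gene identifiers matched, the others by symbol), and promoters are from RefSeq (GRCm38.p6). Hist1h2bd, Hist3h3 and Hist3h2bb, which belong to the lists, were not analysed here.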

Additional observations from a re-analysis of the deposited data

How the results depend on the processing

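No histone cluster gene was called under any alternative run. Over all genes, edgeR called 0, and 0 with RLE scaling, exon reads or limma-voom, but 2 with no filter, 1 with unique exon reads and 100 with DESeq2 (none of them a member; 2 members had an unadjusted DESeq2 p under 0.05). Leaving out each library in turn gave 0 to 279 calls, 47 without saline 1 and 279 without saline 2; the cause was not tested. With a replicate block 55 genes were called and no member; the labels do not say that numbers pair samples, and the deviations of same-numbered samples correlated at -0.13 across genes. The members' median log2 fold change ran from -0.20 to 0.09. Hist1h1c stayed between -0.79 and -0.46 with each library left out. Of 243 alternative values for the 23 members tested, 214 kept their direction and 29 turned. With each library left out in turn, the log2 fold change ran from -0.15 to 0.89 for Hist1h2bm, -0.0033 to 0.27 for Hist1h2bc, -1.70 to 0.19 for Hist1h2aa, -0.018 to 0.52 for Hist2h2aa2, -0.14 to 0.86 for Hist1h2ah, -0.61 to 0.16 for Hist2h2aa1, -0.37 to 0.091 for Hist1h4h, -0.18 to 0.49 for Hist1h2be, -0.58 to 0.26 for Hist1h2al, -0.65 to 0.24 for Hist1h2bk, -0.30 to 0.32 for Hist1h2ba, -0.16 to 0.23 for Hist1h4c, -0.39 to 0.45 for Hist2h2bb and -0.27 to 0.27 for Hist3h2a. Hist2h2bb was at 0.019 with limma-voom and with the replicate block, and Hist3h2a at 0.0032 with limma-voom and 0.0061 with exon reads. Hist1h2be was at -0.14 with exon reads and -0.20 with unique exon reads, which leave out its introns. Hist1h2bj ran from -1.98 to -0.80. With unique exon reads, neither Hist1h2bj nor Hist1h2bl passed the low-count filter, so neither was tested. With 2 libraries a group, and few unique reads for most members, depth limits what can be shown for single genes.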

Other observations

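The 5 linker histone genes that passed the filter were grouped after their values were seen. Hist1h1c, Hist1h1d, Hist1h1e, H1f0 and H1fx were lower on average in immune complex libraries in 5 of 5, and 4 of them did not overlap between groups. Over all genes tested, 48.1% were negative and 14.6% were lower without overlap, but these shares do not test a group chosen after its values were seen. The 5 genes summed to 396.6 and 386.5 CPM with saline against 289.4 and 253.6 with immune complexes, mostly from H1f0 and Hist1h1c. H1fx, the linker histone H1.10, was at 2.16 and 1.70 CPM with saline against 1.03 and 0.567 with immune complexes, with a log2 fold change of -1.26 ± 0.44. None of the 5 passed edgeR's adjusted test.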
